A study of Mus musculus with 12 samples.

Results

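Undifferentiated embryonic stem cells (ESCs) of the line labelled KD2, a knockdown of Smarcd1, were compared with ESCs that carried a scrambled control. The members are the 4 arrays whose titles name these groups, 2 labelled KD2 and 2 labelled scrambled, of 12 arrays in the series. All genes with a probe set that carries exactly 1 gene symbol were read from them, and 12988 genes bright enough to be tested were compared. The other arrays hold a second knockdown line, KD1, in ESCs (2 arrays). They also hold scrambled and KD1 cells differentiated for 4 days with 1 µM retinoic acid (6 arrays). They entered the fit to pool the spread. KD2 was tested against KD1 for every gene, but KD1 values are given beside KD2 values for some genes only.

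The protein made from Smarcd1 is BAF60a, which belongs to the SWI/SNF (BAF) complexes, which use ATP to move nucleosomes and so open or close regulatory DNA. ESCs rely on a particular form of this complex, and the transcription factors Oct4 (Pou5f1), Sox2 and Nanog hold their undifferentiated state. Nodal and FGF signals push ESCs from the naive state of the early epiblast towards the primed state that precedes gastrulation, and leukemia inhibitory factor (LIF) opposes that exit.

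Both groups were R1 ESCs, a male mouse line, grown in serum with 1000 U/ml LIF on mouse embryonic fibroblasts whose division had been stopped with mitomycin, and 300 ng of total RNA was labelled with biotin for each Affymetrix mouse gene array. The scrambled cells had received a scrambled control by infection. The KD2 cells are labelled as a Smarcd1 knockdown, with no sequence of the construct. Both are called clones in the protocol, so KD2 against scrambled may be a comparison of 1 clone with another, and other differences between the cells cannot be told apart from the knockdown. Replicates are biological by their titles, but nothing tells whether they came from separate cultures. A p-value here therefore measures only the spread between arrays, which may be technical. That spread is pooled over all arrays of the series, the retinoic acid groups included. A gene can therefore go uncalled through spread among arrays that are not compared here. Values are the deposited log2 intensities, on which a difference of 1 is 2-fold, and the precision is limited by the 2 arrays of each group. The log2 difference is given with its standard error (SE) from limma, a moderated linear model, and a gene is called when its Benjamini-Hochberg adjusted p is under 0.05.

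The targeted gene did not mark both KD2 arrays. Smarcd1 read 8.67 and 8.68 on the scrambled arrays, 8.56 on KD2 replicate 1 and 7.16 on KD2 replicate 2. Replicate 2 was therefore well below the scrambled arrays, while the library labelled KD2 replicate 1 lay within 0.11 of their mean. The difference of -0.81 ± 0.33 was not called (adjusted p = 0.152). It was called without replicate 1 (adjusted p = 0.000201) and not without replicate 2 (adjusted p = 0.607). On KD1 Smarcd1 read 7.75 and 7.78. Each result below is for these reasons given with both KD2 arrays.

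The 2 KD2 arrays also differed from each other far more than other pairs. Between them 2240 of 12988 genes (17.2%) differed over 2-fold, against 182 (1.4%) between the scrambled arrays and 29 (0.223%) between the KD1 arrays. KD2 replicate 1 was the higher array for 513 of these genes (3.95%) and the lower for 1727 (13.3%). Some kinds of transcript, picked out after their values were seen, differed as a block. All 52 small nucleolar RNAs tested were higher on replicate 1: their median read 8.98 and 9.12 on the scrambled arrays, 9.16 on KD2 replicate 1 and 7.19 on KD2 replicate 2. Nuclear genes for mitochondrial proteins and the proteasome differed the other way. Of 77 mitochondrial ribosomal proteins 73 were lower on replicate 1, of 35 subunits of respiratory complex I 34 were, and of 38 proteasome subunits 38 were. For the mitochondrial ribosomal proteins the scrambled medians were 7.65 and 7.61 and the KD2 medians 7.12 and 8.06, so that the KD2 arrays lay on either side. By contrast 293 zinc finger genes of the Zfp family had medians of 5.94 and 6.04 on KD2, close to 6.05 and 6.11 on scrambled. What sets the KD2 arrays apart was not tested.

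**Figure D1:**
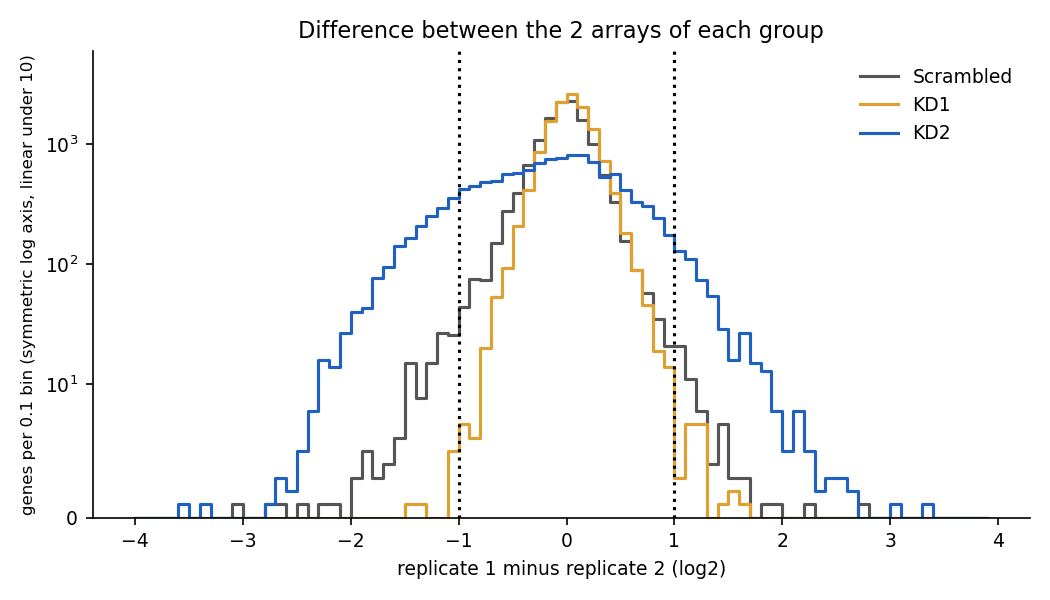
Histogram of the log2 difference between replicate 1 and replicate 2 for the 12988 tested genes in scrambled, KD1 and KD2 ESCs, with the number of genes per bin on a symmetric log axis and dotted lines at 2-fold. The KD2 curve is the widest, with 2240 genes past 2-fold against 182 for scrambled and 29 for KD1.

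Single genes show the size of this split. Ephx2, a soluble epoxide hydrolase, read 5.08 on KD2 replicate 1 and 8.59 on replicate 2, with 6.28 and 5.62 on scrambled. Gstp1, a glutathione transferase, read 7.04 and 9.68 on KD2 against 8.65 and 8.27. Neither gene was called, and both had their scrambled values between the KD2 values. In the other direction Xist, the RNA that silences an X chromosome in female cells, read 6.10 on KD2 replicate 1 and 3.84 on replicate 2, with 4.14 and 4.15 on scrambled. H1f2, a linker histone, read 9.25 and 6.93 on KD2 against 8.22 and 8.48.

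The markers of ESCs were bright on all 4 arrays. Pou5f1, Nanog, Sox2, Zfp42, Esrrb and Dppa5a lay between percentiles 87 and 100 of each array. Of the fibroblast markers Col1a1 and Col1a2 lay between percentiles 82 and 91, Acta2 between 77 and 96, Thy1 between 67 and 74, Col3a1 between 58 and 70 and Postn between 41 and 58. The markers of extraembryonic endoderm (Gata6, Gata4, Sox17, Dab2 and Cubn) lay between percentiles 23 and 56, those of trophectoderm (Cdx2, Elf5 and Gata3) between 25 and 47. Of the neural markers Sox1 lay between percentiles 59 and 66 and Pax6 between 33 and 53. The mesoderm marker Mixl1 lay between 31 and 48.

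Over the whole array 1302 of 12988 genes (10.0%) were called, 374 higher (2.88%) and 928 lower (7.15%) in KD2. Under quantile normalization the split was 581 higher and 720 lower. In all 1302 called genes both KD2 arrays lay outside the range of the scrambled arrays, which is also true of 2388 genes (18.4%) on the high side and 2880 (22.2%) on the low side among all genes tested. More genes were called with either KD2 array left out than with both, and the spread between the KD2 arrays then left the fit. Passing without each KD2 array is therefore not separate support for a call. Read array by array with no test, KD2 replicate 1 was over 2-fold above the scrambled mean for 264 genes (2.03%) and below it for 896 (6.90%), and replicate 2 for 528 (4.07%) and 895 (6.89%). On both KD2 arrays 85 genes (0.654%) were over 2-fold higher and 304 (2.34%) over 2-fold lower, while 17 were over 2-fold in opposite directions. The count of calls depends on the spread assumed for the KD2 arrays. In limma on the 4 arrays alone no gene was called (0, against 1288 with an unadjusted p under 0.05), and a fit with array weights, which gave each KD2 array a weight of 0.137, called 6. These 6 were Uty, Gja1, Usp26 and Fgf5, and, named after their values were seen, Slc39a8 and Mir363. Without scrambled replicate 2 the count was 333.

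The largest increase was read by a probe set of Kcnma1, which encodes the pore of the BK channel, a potassium channel opened by calcium and voltage. It read 2.88 and 3.09 on scrambled, 7.37 on KD2 replicate 1 and 9.14 on replicate 2. Both KD2 arrays stood far above a reading that sat at percentiles 9.3 and 13.3 of the scrambled arrays, among the dimmest. The difference was 5.27 ± 1.04 (adjusted p = 0.00909). On KD1 the gene read 2.75 and 3.01, and the difference between the lines was 5.37 ± 1.04 (adjusted p = 0.0236). Scrambled and KD1 lay below the level used to filter dim genes (4.46 to 4.63 over the arrays), where a reading may be background. Set against that level instead, the increase was 3.68 over scrambled and 3.65 over KD1. These values are from the brighter of 2 probe sets for Kcnma1. The other read 3.23 and 3.59 on scrambled and 3.30 and 3.53 on KD2, a difference of 0.01, so the probe sets disagree. Averaged over both, the difference was 2.64 (adjusted p = 0.0150). Without scrambled replicate 2 the adjusted p of KD2 against scrambled was 0.0683.

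Epas1 encodes HIF-2α, an oxygen-sensitive transcription factor. It read 6.37 and 6.15 on scrambled and 8.49 and 8.21 on KD2. The KD2 arrays were close together and apart from the scrambled arrays, by 2.09 ± 0.18 (4.26-fold, adjusted p = 0.000103). KD1 read 7.29 and 6.97 and was also called higher than scrambled (0.87 ± 0.18, adjusted p = 0.0280). KD2 exceeded KD1 by 1.22 ± 0.18 (adjusted p = 0.00751). The oxygen-sensing machinery itself holds the HIF subunits and the hydroxylases that mark them. Of its 12 genes Epas1 was the one called, where 10.0% of all genes were. The median difference of the 12 was 0.06, against -0.02 for all genes. Among 28 glycolysis and hypoxia targets tested none was higher and 2 were lower, a share near the 7.15% of all genes that were lower. Ddit4, an inhibitor of mTORC1, read 7.91 and 7.82 on scrambled and 6.19 and 6.83 on KD2. P4ha1, a collagen prolyl hydroxylase, read 9.03 and 8.63 against 7.80 and 7.39. The call on P4ha1 was lost without scrambled replicate 1 (adjusted p = 0.0765). The median of the 28 targets was -0.38 from the scrambled mean on KD2 replicate 1 and 0.22 on replicate 2. For all genes it was -0.13 and 0.08.

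Other large increases came from several classes of gene. Atp2a3, a calcium pump of the endoplasmic reticulum, read 6.29 and 5.17 on scrambled and 8.78 and 7.91 on KD2 (2.62 ± 0.34, adjusted p = 0.0011). Mmrn2, an extracellular matrix protein known from endothelium, read 5.74 and 5.55 against 8.31 and 7.79 (2.41 ± 0.30, adjusted p = 0.000835). Mras, a small GTPase of the Ras family, read 6.59 and 5.87 against 8.02 and 8.60 (2.08 ± 0.29, adjusted p = 0.00138). In each of these genes the KD2 values were apart from the scrambled values and lay within 0.9 log2 units of each other. Tgfbi, a matrix protein induced by TGF-β, rose by 2.21 ± 0.38, but its call was lost without scrambled replicate 2 (adjusted p = 0.0602). Igsf21, an immunoglobulin superfamily protein, rose by 2.22 ± 0.33. Less even were Slc15a1, a peptide transporter, at 8.45 and 6.30 on KD2 against 5.49 and 5.22, and Laptm5, a lysosomal membrane protein, at 10.32 and 8.86 against 8.36 and 6.71. Slc15a1 lost its call without either scrambled array (adjusted p = 0.0745 without replicate 1 and 0.167 without replicate 2). Laptm5 lost its call without KD2 replicate 1 (adjusted p = 0.0749) or scrambled replicate 2 (adjusted p = 0.261). Of the 12 largest increases 2, Kcnma1 and Epas1, were called between the lines, where 0.508% of all genes were higher in KD2. In KD1 against scrambled 7 of the 12 were also called higher: Epas1, Atp2a3, Mmrn2, Tbx3, Spry4, Igsf21 and Rian. KD1 against the same scrambled arrays had 301 genes called (2.32%), 118 higher (0.909%) and 183 lower (1.41%). Of these genes 234 were called in the same direction in KD2, where 10.0% of all genes were called in either direction. Both comparisons use the same scrambled arrays, so these overlaps are not separate support for a call.

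**Figure D2:**
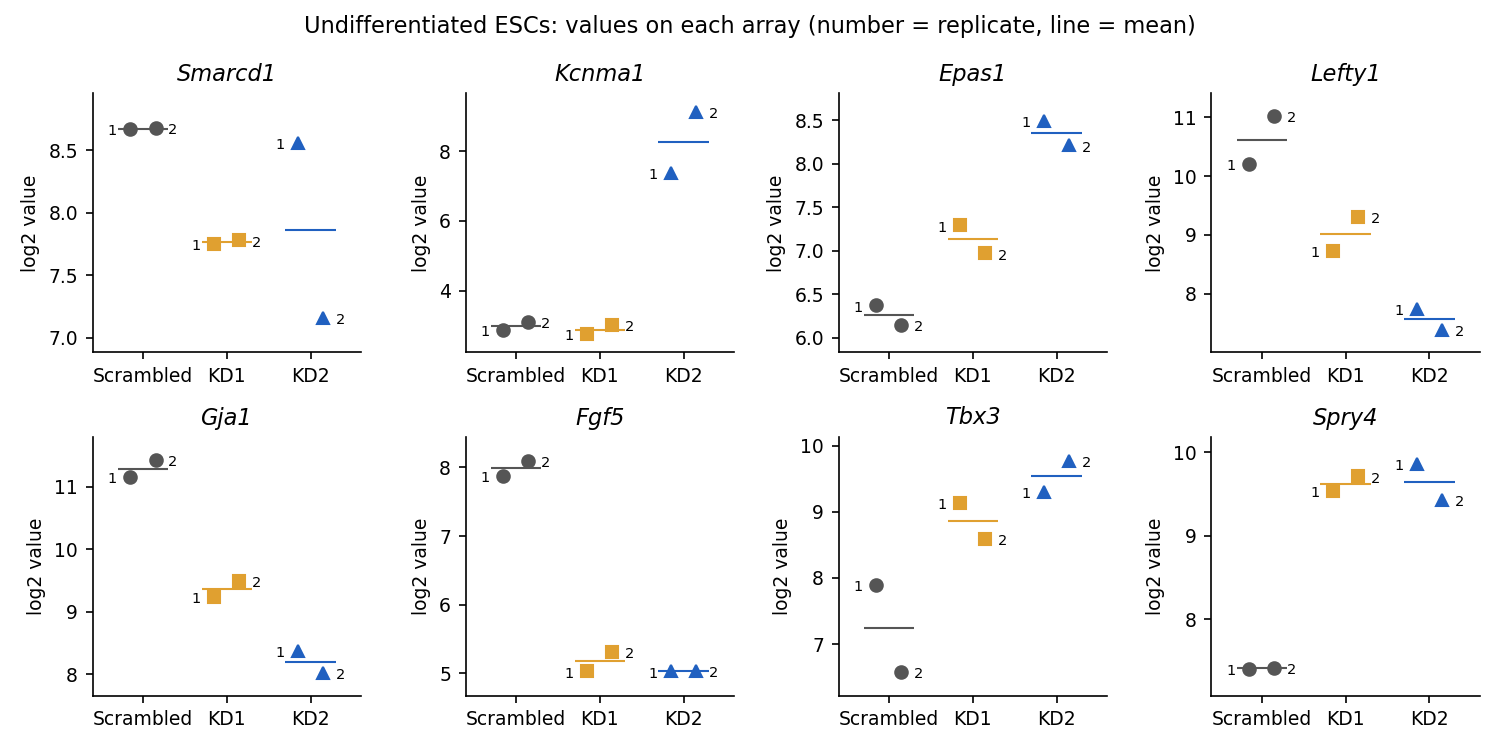
Log2 values of 8 genes on each ESC array, with the replicate number beside each point and the group mean as a line. Smarcd1 is near the scrambled level on KD2 replicate 1, while both KD2 arrays lie above the scrambled arrays for Kcnma1, Epas1, Tbx3 and Spry4 and below them for Lefty1, Gja1 and Fgf5.

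The largest decreases included genes of the Y chromosome. Uty, the Y-linked relative of the histone demethylase Kdm6a, read 7.51 and 8.08 on scrambled and 3.10 and 2.71 on KD2 (-4.89 ± 0.25, adjusted p = 4.9e-06). Eif2s3y, a translation initiation factor subunit, read 8.69 and 8.51 against 5.49 and 5.74 (-2.99 ± 0.41, adjusted p = 0.00136). Uba1y, the third gene tested of the Y-linked list, fell by 1.45 on the log2 scale, and all 3 were also called lower in KD1. Sry, the one other Y-chromosome gene tested, read 5.55 and 5.25 on scrambled and 5.77 and 5.46 on KD2 and was not called (0.21 ± 0.18). Eif2s3y has a close X-linked copy, and how far its probes read that copy was not tested. Usp26, an X-linked deubiquitinase, read 7.39 and 7.82 on scrambled and 3.50 and 3.22 on KD2 (-4.25 ± 0.28, adjusted p = 1.8e-05), and was lower than in KD1 by 2.22 log2 units. Its KD2 values were more than 3 log2 units below the scrambled values on both arrays. Uty, Usp26 and Uba1y lay below the filter level on KD2, where a reading may be background. Set against that level instead, the decreases from scrambled were 3.19 log2 units for Uty, 3.01 for Usp26 and 0.91 for Uba1y, and that of Usp26 from KD1 was 0.98.

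Gja1 encodes connexin 43, the main gap junction protein of ESCs and also a fibroblast gene. It read 11.16 and 11.43 on scrambled and 8.38 and 8.03 on KD2. The groups were separated by much more than the distance between arrays, with a difference of -3.10 ± 0.18 (8.55-fold lower, adjusted p = 6.18e-06). The other 7 gap junction genes tested were not called, where 10.0% of all genes were. Of the 2 other surface proteins with large decreases, Cd24a, a glycosylated adhesion molecule, read 9.30 and 9.86 against 6.09 and 7.02, and Lpar4, a lysophosphatidic acid receptor, read 8.22 and 9.03 against 5.33 and 5.45. Slc27a2, a fatty acid transporter, read 9.88 and 11.05 against 7.40 and 6.75, and Atp10a, a phospholipid flippase, read 7.41 and 8.32 against 5.02 and 4.82. All of these pairs were apart by over 2 log2 units. Car4, a carbonic anhydrase, differed by -3.02 ± 0.72, and Cyp1a1, a cytochrome P450 with scrambled values as far apart as 5.20 and 8.28, by -3.07 ± 0.70, or by -2.13 with its KD2 values, which lay below the filter level, set to that level. Each lost its call without scrambled replicate 2 (adjusted p = 0.189 and 0.0556). Of the 12 largest decreases 5 were called between the lines, where 2.19% of all genes were lower in KD2. In KD1 against scrambled 9 of the 12 were also called lower, where 1.41% of all genes were. The 12 were chosen against the same scrambled arrays, so that share is not a fair background and the overlap is not separate support.

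Replication-dependent histone genes code for the core and linker histones that package newly made DNA. Their messages are made in S phase and usually carry no poly(A) tail. Of the 15 listed genes tested, 9 rose and none fell in KD2, where 2.88% of all genes were higher. Their median difference was 0.81, with 0.92 on replicate 1 and 0.63 on replicate 2. In 10 genes both KD2 arrays lay above both scrambled arrays, where 18.4% of all genes did. H2bc18, a gene for histone H2B, read 6.27 and 6.05 on scrambled and 7.65 and 7.60 on KD2. The KD2 arrays agreed to 0.05 and stood clear of scrambled by 1.46 ± 0.15 (2.76-fold, adjusted p = 0.000289). H2bc3 read 6.50 and 6.42 against 7.84 and 7.65 (1.28 ± 0.18, adjusted p = 0.00136). H2bc14 read 8.50 and 8.05 against 9.46 and 9.42 (1.16 ± 0.20, adjusted p = 0.00485). H4c6, a gene for histone H4, read 8.84 and 8.76 against 10.04 and 9.92 (1.18 ± 0.16, adjusted p = 0.00112). None of these groups overlapped.

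Promoters of H2B genes are known to carry the octamer ATTTGCAT, which is bound by Oct1 and can be bound by other POU proteins such as Oct4. The 4 histone genes with the largest increases are shown from 250 bases before to 50 after the annotated start, from RefSeq for GRCm38.p6, 5′ to 3′ on the strand of the gene, with the octamer in capitals. They are H2bc18 at chr3:96269450-96269749 (+), H2bc3 at chr13:23746484-23746783 (+), H2bc14 at chr13:21721794-21722093 (+) and H4c6 at chr13:23551619-23551918 (-).
H2bc18: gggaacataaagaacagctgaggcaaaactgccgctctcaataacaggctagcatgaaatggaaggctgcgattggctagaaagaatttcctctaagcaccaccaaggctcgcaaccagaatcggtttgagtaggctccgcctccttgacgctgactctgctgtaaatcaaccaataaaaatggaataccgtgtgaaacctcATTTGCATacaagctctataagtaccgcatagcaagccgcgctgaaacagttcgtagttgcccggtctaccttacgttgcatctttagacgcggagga
H2bc3: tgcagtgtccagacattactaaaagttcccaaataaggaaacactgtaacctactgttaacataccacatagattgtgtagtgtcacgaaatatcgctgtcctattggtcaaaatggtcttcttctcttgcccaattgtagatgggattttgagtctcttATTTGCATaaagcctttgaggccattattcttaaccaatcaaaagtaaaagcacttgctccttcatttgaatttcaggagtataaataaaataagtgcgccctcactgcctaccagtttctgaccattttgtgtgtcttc
H2bc14: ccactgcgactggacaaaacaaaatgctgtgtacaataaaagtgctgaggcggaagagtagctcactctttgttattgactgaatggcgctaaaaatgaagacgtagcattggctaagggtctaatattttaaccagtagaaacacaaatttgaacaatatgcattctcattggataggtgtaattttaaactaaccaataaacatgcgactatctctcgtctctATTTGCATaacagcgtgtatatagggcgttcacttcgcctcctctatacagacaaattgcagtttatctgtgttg
H4c6: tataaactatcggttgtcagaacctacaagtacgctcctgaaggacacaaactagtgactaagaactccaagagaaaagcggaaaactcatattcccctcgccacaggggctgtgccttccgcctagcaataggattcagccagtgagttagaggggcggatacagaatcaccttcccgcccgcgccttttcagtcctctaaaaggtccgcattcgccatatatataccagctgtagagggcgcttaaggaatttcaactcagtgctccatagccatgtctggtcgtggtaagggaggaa
The octamer was searched on both strands. It was found in 4 of 4 H2B genes with a promoter entry, H2bc8 included, and in 1 of the 10 other histone genes, H2ac4. It occurs in 570 of 32851 promoters of this length (1.74%). Of the 5 histone genes with the octamer 4 were called, and of the 9 without it 5 were. H2bc8 has the octamer and was not called (0.33 ± 0.24), and H4c6 lacks it and was. A match is a description of the letters and not of binding.

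The rest of the list was uneven. H1f1 (0.81 ± 0.21) and H1f5 (0.81 ± 0.19), both linker histones, H2ac4 (0.95 ± 0.23), H4c3 (0.90 ± 0.23) and H4c4 (0.82 ± 0.16) rose. H2bc4, H2bc8, H4c8, H4c9, H1f2 and H1f3 were not called, and H1f2 lay on either side of scrambled on the 2 KD2 arrays. H3c15, a histone H3 gene that was tested but is not in the list, also lay on either side. It read 6.30 and 6.84 on scrambled and 7.33 and 5.08 on KD2 and was not called (-0.37 ± 0.57). In KD1 none of the 15 was called, with a median of -0.10. Between the lines 8 of 15 were higher in KD2, where 0.508% of all genes were. Those 8 became 4 without KD1 replicate 1 and 1, H2bc18, without KD1 replicate 2. Fewer than 9 increases over scrambled were called without either scrambled array. With either KD2 array left out more were called, and some decreases, but calls over all genes also rose. The 9 increases became 5 with the replicate number as a block, 1 in the fit to the 6 ESC arrays and 0 with array weights. Histone genes of a type are nearly identical in sequence, so a probe set may read several of them. Small nucleolar RNAs, a class picked out after its values were seen, had a median of -0.02 from scrambled on KD2 replicate 1 and -1.67 on replicate 2. The cell cycle list had medians of -0.53 on replicate 1 and 0.32 on replicate 2. The part of RNA quality or of cell cycle stage in the histone values was not tested.

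**Figure D3:**
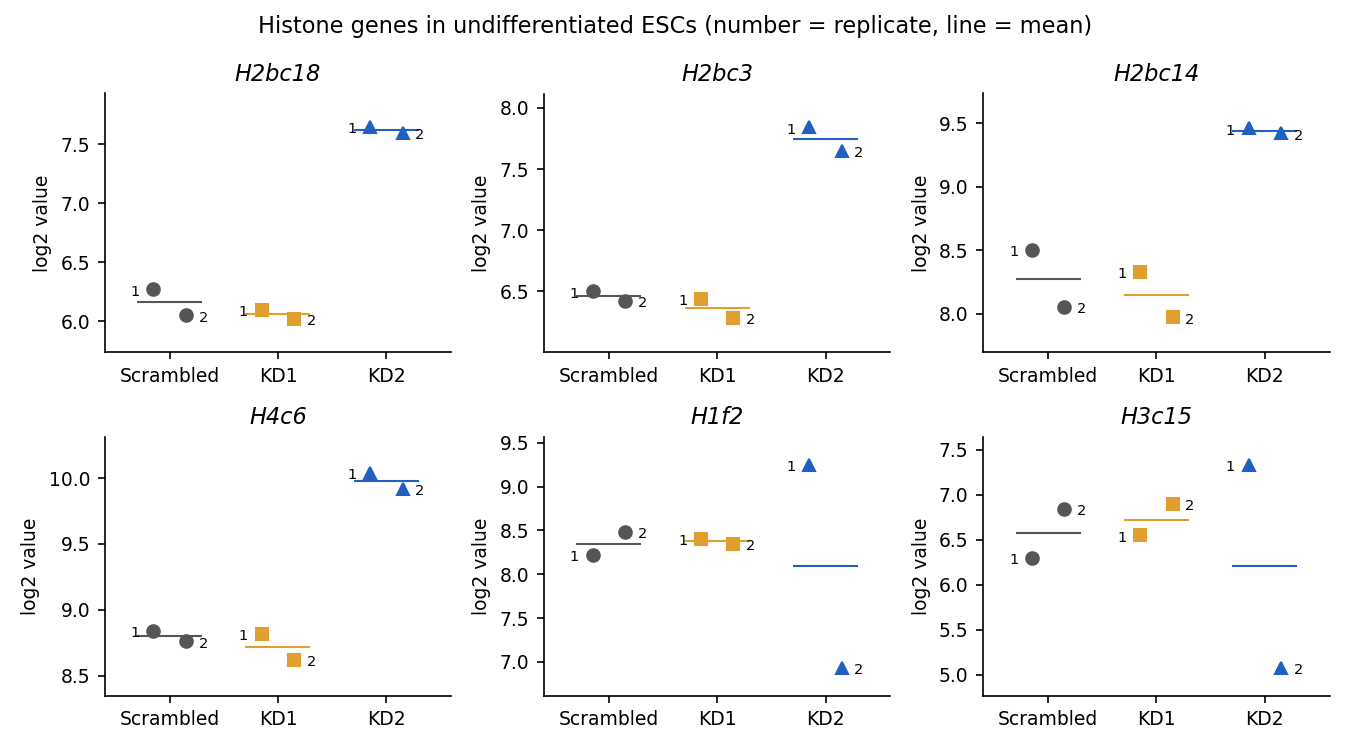
Log2 values of 6 histone genes on each ESC array, with replicate numbers and group means. H2bc18, H2bc3, H2bc14 and H4c6 are higher on both KD2 arrays than on any scrambled or KD1 array, while H1f2 and H3c15 are high on KD2 replicate 1 and low on replicate 2. H3c15 is not in the histone list that was counted.

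Nodal signalling runs from the ligands Nodal and activin through activin receptors and Smad2/3 with the partner Foxh1, and induces its own inhibitors Lefty1 and Lefty2. Of 21 genes tested 5 fell and 2 rose, where 7.15% of all genes were lower and 2.88% higher, and the median was -0.53. Nodal read 10.36 and 10.21 on scrambled and 9.58 and 8.55 on KD2 (-1.22 ± 0.28, adjusted p = 0.0195). Lefty1 read 10.21 and 11.02 against 7.75 and 7.39 (-3.05 ± 0.28, 8.27-fold lower, adjusted p = 0.000156). Lefty2 read 10.13 and 10.06 against 8.38 and 7.49 (-2.16 ± 0.32, adjusted p = 0.00199). All 3 were below both scrambled arrays on both KD2 arrays, and Nodal and Lefty2 were lower on replicate 2. Lefty1 and Lefty2 are close copies, and how far their probes are shared was not tested. Among receptors and mediators Acvr2b, a type II activin receptor, fell by 0.80 on the log2 scale and Foxh1 fell by 1.25, though Foxh1 lost its call without scrambled replicate 2 (adjusted p = 0.0687). Smad2 (0.27 ± 0.15), Smad4 (0.03 ± 0.18) and the co-receptor Tdgf1 (0.00 ± 0.64) were not called. Genes of the pathway that rose were Inhbb, the activin βB subunit, at 5.04 and 5.38 on scrambled and 7.12 and 6.81 on KD2 (1.76 ± 0.19, adjusted p = 0.000374), and the inhibitory Smad7 (1.14 ± 0.22, adjusted p = 0.00801). Lefty1 was lower than in KD1 by 1.44 log2 units, and Inhbb was higher than in KD1 by 1.04 ± 0.19. Fewer members of the list were called without scrambled replicate 2. More were called with either KD2 array left out, when calls over all genes also rose.

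Of 18 primed epiblast genes tested 7 fell and none rose, where 7.15% of all genes were lower and 2.88% higher, with medians of -0.95 on replicate 1 and -0.62 on replicate 2. Fgf5, a growth factor that marks the primed state, read 7.88 and 8.09 on scrambled and 5.03 and 5.04 on KD2, a difference of -2.95 ± 0.20 (adjusted p = 2.19e-05). Cdh2, N-cadherin, read 7.53 and 7.78 against 5.14 and 4.81 (-2.68 ± 0.23, adjusted p = 0.00012). Cldn6, a tight junction protein, read 11.05 and 11.45 against 8.99 and 9.05 (-2.23 ± 0.28, adjusted p = 0.000848). In these 3 genes the KD2 arrays lay within 0.4 of each other and 2 or more below scrambled. The de novo DNA methyltransferase Dnmt3b (-1.54), the transcription factors Sox4 (-1.71) and Sox11 (-1.60) and the Wnt antagonist Sfrp2 (-1.88) also fell, Sfrp2 not without scrambled replicate 2 (adjusted p = 0.0574). Fgf5 fell by 2.81 in KD1, where 3 members of the list were called. Fewer decreases were called without scrambled replicate 2, and more without scrambled replicate 1 or KD2 replicate 2. Calls over all genes also rose without KD2 replicate 2.

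Of 29 pluripotency genes tested 6 rose and 1 fell, where 2.88% of all genes were higher and 7.15% lower. The other 22 were not called, and the median was 0.43, with 0.11 on replicate 1 and 0.65 on replicate 2. Tbx3, a T-box factor of naive ESCs, read 7.90 and 6.58 on scrambled and 9.30 and 9.77 on KD2 (2.30 ± 0.34, adjusted p = 0.00217). Klf4, a factor induced by LIF, read 8.24 and 6.88 against 8.95 and 9.63 (1.73 ± 0.37, adjusted p = 0.0134). Tet2, which oxidises methylcytosine, read 6.96 and 6.31 against 8.40 and 7.91 (1.52 ± 0.24, adjusted p = 0.00275). The scrambled arrays differed by over 1 in Tbx3 and Klf4, and both were lowest on scrambled replicate 2. Zfp57, which protects imprints, Klf5 and Pou5f1 also rose, Pou5f1 not without KD2 replicate 2 (adjusted p = 0.0785). Dppa3, the maternal factor Stella, fell by 1.27 on the log2 scale, but its KD2 values of 4.36 and 4.19 lay below the filter level. Nanog at 10.35 and 9.76 against 10.80 and 11.06 was not called (0.87 ± 0.80). Sox2 at 10.65 and 10.61 against 11.15 and 11.27 was not called either (0.58 ± 0.45). In both genes the KD2 arrays lay above the scrambled arrays. The standard deviations within scrambled and KD2 were 0.42 and 0.18 for Nanog and 0.02 and 0.08 for Sox2. The SEs of Nanog and Sox2 also hold the spread of the other arrays in the fit, so the missing calls do not show noisy ESC arrays. Fewer than the 6 increases were called without scrambled replicate 2, Klf4 being one of those lost. More were called without KD2 replicate 1, when calls over all genes also rose. None of the 29 was called between KD2 and KD1.

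FGF signals through ERK induce feedback inhibitors and early transcription factors. Of 18 such genes 5 rose and 1 fell, where 2.88% of all genes were higher and 7.15% lower, and the median was 0.34. Spry4, a Sprouty feedback inhibitor, read 7.41 and 7.42 on scrambled and 9.86 and 9.43 on KD2 (2.23 ± 0.27, adjusted p = 0.000729). Phlda1 read 4.98 and 5.13 against 6.40 and 6.24, and the ETS factor Etv4, the early gene Egr1 and Myc rose by 0.94, 1.18 and 1.24. Spry2, also of the list, read 8.50 and 8.48 against 9.76 and 9.92 but was not called (1.34 ± 0.48). Its SE also holds the spread of the other arrays in the fit. Dusp4, an ERK phosphatase, read 8.59 and 7.89 against 5.65 and 7.41, apart from scrambled on both arrays but by very different amounts. Myc lost its call without KD2 replicate 2 (adjusted p = 0.0535) or either scrambled array, and Dusp4 without KD2 replicate 1 (adjusted p = 0.0528) or either scrambled array. The list had 2 increases without scrambled replicate 2 and 3 without scrambled replicate 1. In the BMP list 1 of 19 genes rose, the ligand Bmp4 at 8.81 and 7.86 against 10.37 and 9.91, and 2 fell, Bmpr1b and Bambi. Bmpr1b lay below the filter level on KD2, and set against that level its decrease was 0.34 log2 units. Without scrambled replicate 2 none of the 19 was called.

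Of 20 genes of cholesterol synthesis and uptake 5 fell and none rose, where 7.15% of all genes were lower, with medians of -0.53 on replicate 1 and -0.44 on replicate 2. Msmo1, a sterol C4 demethylase, read 11.78 and 11.98 on scrambled and 10.88 and 10.54 on KD2 (-1.17 ± 0.22, adjusted p = 0.00781). Sqle, Cyp51, Ebp and Dhcr7, which act before or after it in the pathway, fell by between 0.83 and 1.13. Msmo1, Sqle and Cyp51 were not called without scrambled replicate 2, nor Ebp without scrambled replicate 1. The count of decreases was 1 under cyclic loess and 1 under quantile normalization. It fell without scrambled replicate 2 and rose with either KD2 array left out, when calls over all genes also rose.

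Potassium channel genes other than Kcnma1 went down where they were called. Of 14 tested 4 fell, with 7.15% of all genes lower. Kcnk1, a channel of the tandem pore family, read 9.97 and 11.15 on scrambled and 7.46 and 8.15 on KD2 (-2.76 ± 0.44, adjusted p = 0.00296). Kcnj3, an inward rectifier coupled to G proteins, read 6.75 and 8.10 against 5.10 and 4.66 (-2.55 ± 0.37, adjusted p = 0.00189). Kcnn1 and Kcnn2, small-conductance channels that calcium opens, fell by 0.68 and 1.33 on the log2 scale. With its dim KD2 values set to the filter level, the decrease of Kcnn2 was 1.20. Both KD2 arrays were below the scrambled arrays in all 4 genes. Without scrambled replicate 2 the list had 2 decreases, and Kcnma1 was not called.

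Among the subunits of the BAF complexes 1 of 27 was called, where 10.0% of all genes were. Brd9, a bromodomain protein of the non-canonical BAF complex that also holds BAF60a, read 8.07 and 8.19 on scrambled and 7.01 and 7.54 on KD2 (-0.86 ± 0.19, adjusted p = 0.0175). Its call was lost without either scrambled array (adjusted p = 0.0545 without replicate 1 and 0.133 without replicate 2). The paralogs of Smarcd1 were highest on KD2 replicate 2. Smarcd2 read 6.20 and 6.26 on scrambled, 6.05 on KD2 replicate 1 and 6.94 on replicate 2, and Smarcd3 read 5.27 and 4.85, 5.37 and 6.55. Neither was called over both arrays (adjusted p = 0.569 and 0.213), and each was called without replicate 1 (adjusted p = 0.00806 and 0.0176). In KD1, where Smarcd1 was low on both arrays, Smarcd2 differed from scrambled by 0.01 ± 0.24 and Smarcd3 by 0.19 ± 0.42, and neither was called.

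Of 29 fibroblast genes, which a feeder layer expresses strongly, 4 fell and none rose, where 7.15% of all genes were lower: Acta2, Tagln, Mmp2 and Cd44. All 29 had negative differences, with a median of -0.65. Their mean level was 7.58 and 7.60 on scrambled and 6.84 and 7.07 on KD2. In 20 of the 29 both KD2 arrays lay below both scrambled arrays, where 22.2% of all genes did. None of the 4 calls was left without scrambled replicate 2. In KD1 the median was -0.58, and none of the 29 was called between the lines. Fewer fibroblasts and less RNA per fibroblast cannot be told apart in these bulk samples. Their part in the decreases of Gja1, Cdh2, Cd44 and other genes that fibroblasts also express was not tested.

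Of 25 extraembryonic endoderm genes none rose and 3 fell, with 7.15% of all genes lower: Lrp2, the endocytic receptor megalin, at 7.01 and 8.69 on scrambled and 5.54 and 4.64 on KD2, Lamb1, a laminin chain, at 9.58 and 9.95 against 8.92 and 8.37, and Plat, a plasminogen activator. Against KD1 7 of the 25 were lower in KD2, where 2.19% of all genes were. In KD1 6 of the 25 were called higher than scrambled, where 0.909% of all genes were. The mean of the list was 5.98 and 5.97 on scrambled, 6.64 and 6.54 on KD1 and 5.91 and 5.67 on KD2. The difference between the lines therefore holds a rise in KD1 as well. Of 11 neural genes 2 fell, Dll1, a Notch ligand, at 7.45 and 8.42 against 5.15 and 5.08, and Nes, an intermediate filament. In trophectoderm the keratins Krt8 and Krt18 fell and Tead4 rose, and of 14 mesoderm and primitive streak genes none was called. Lamb1 (adjusted p = 0.0923) and Tead4 (adjusted p = 0.174) lost their calls without scrambled replicate 2, Krt8 (adjusted p = 0.113) and Krt18 (adjusted p = 0.0902) without scrambled replicate 1, and Plat without either and without KD2 replicate 1.

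Imprinted genes changed in both directions, 2 up and 4 down of 21, where 2.88% of all genes were higher and 7.15% lower. Meg3 and Rian, noncoding RNAs of one maternally expressed cluster, rose. Meg3 read 6.64 and 6.96 on scrambled and 8.80 and 8.46 on KD2 (1.83 ± 0.20, adjusted p = 0.000438), below the 10.12 and 10.17 of KD1 by 1.51 log2 units. Peg3, Mest, Sgce and Magel2, all paternally expressed, fell, Mest from 10.02 and 10.11 to 8.66 and 8.47. Without scrambled replicate 2 the list had 1 decrease, and Peg3 was not called (adjusted p = 0.0544). Germline genes were mixed, with 3 of 16 up and 2 down. Hormad1, a meiotic chromosome axis protein, read 6.90 and 6.92 against 5.54 and 5.40 and was lower than in KD1 by 1.38 log2 units. Rnf17, a Tudor protein of spermatids, read 6.81 and 6.91 against 8.10 and 8.37. The calls on Rnf17, Mael and Piwil2, the 3 that rose, were lost without scrambled replicate 1 (adjusted p = 0.0672, 0.147 and 0.106), and those on Rnf17 (adjusted p = 0.0869) and Piwil2 (adjusted p = 0.195) also without scrambled replicate 2.

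In the remaining lists few members were called, with 2.88% of all genes higher and 7.15% lower as their background. Of 18 p53 targets 2 rose, Pmaip1, which promotes apoptosis, and Zmat3, an RNA-binding protein, with a median of 0.30 over the list and 0.54 in KD1. Of 36 cell cycle and replication genes 3 fell, Ccne2, Cdk1 and Cdt1, a share near that of all genes, and the list's median was -0.53 on replicate 1 and 0.32 on replicate 2. For all genes the medians were -0.13 and 0.08. Most calls of the list were higher without KD2 replicate 1, and all were lower without KD2 replicate 2. Calls over all genes rose in both of these fits. Interferon response genes had 2 decreases among 10, Ifit2 and Bst2. Ifit2 read 4.30 and 4.74 on scrambled, near the filter level, and 3.28 and 3.12 on KD2, below it. Amino acid stress genes driven by ATF4 had 2 decreases among 21, Slc3a2 and Vldlr. The Wnt list had 1 increase, Sfrp1, and 1 decrease, Sfrp2, among 14. Of the called genes of these 5 lists, each but Zmat3 lost its call without one or the other scrambled array.

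**Figure D4:**
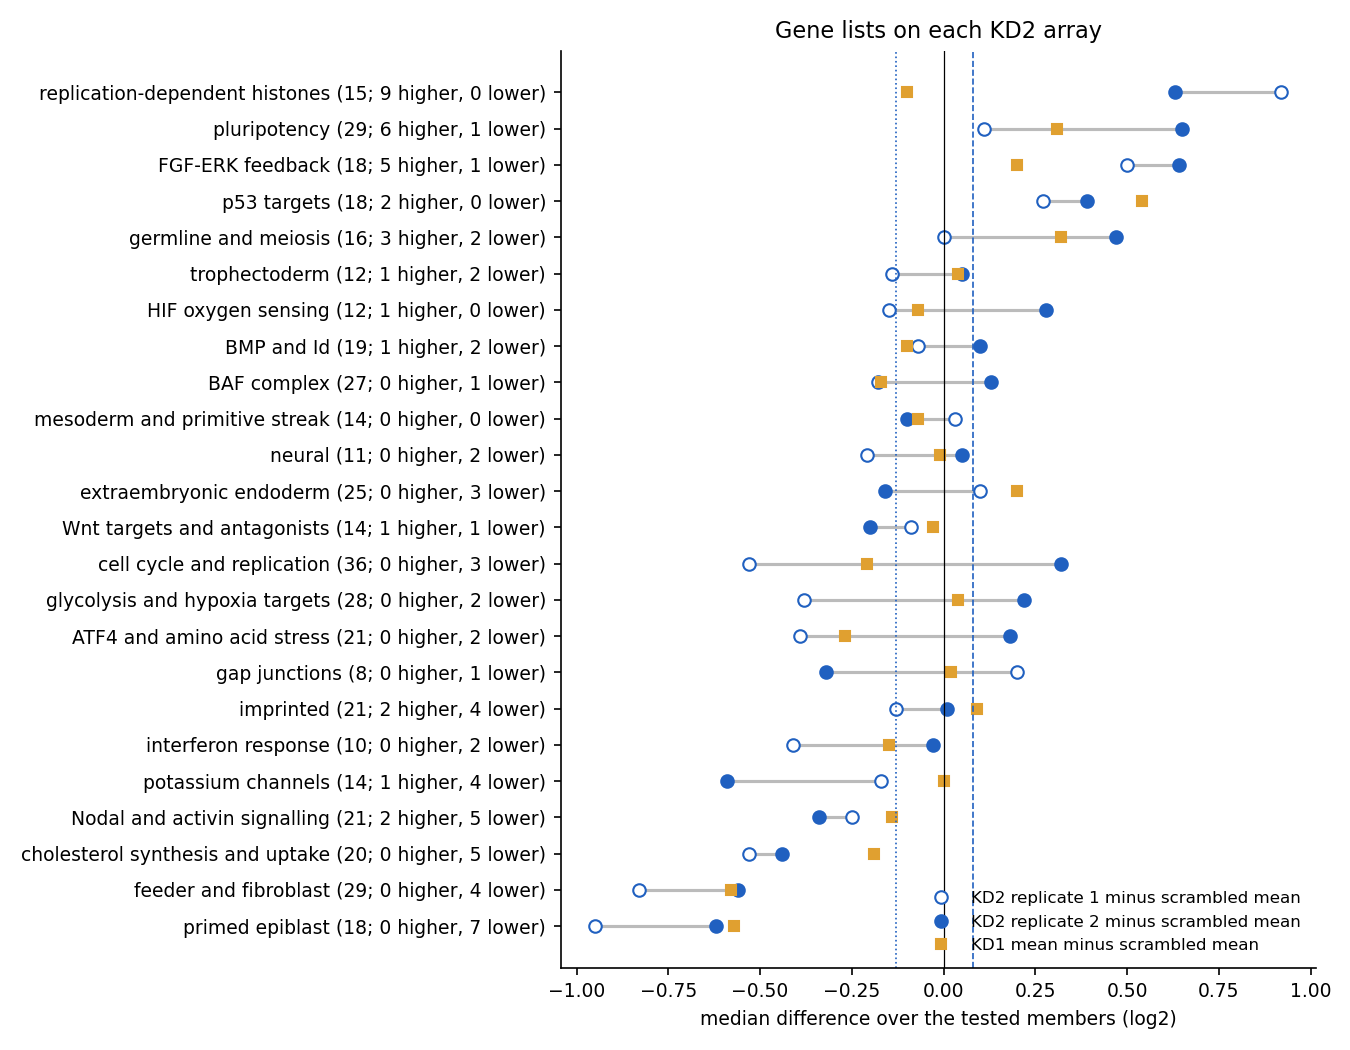
Median log2 difference from the scrambled mean over the tested members of each list, on KD2 replicate 1 (open circles), KD2 replicate 2 (filled circles) and the KD1 mean (squares), with the number tested and called in brackets and without the Y-linked list, and blue lines at the medians of all genes on replicate 1 (dotted, -0.13) and replicate 2 (dashed, 0.08). Histones lie at 0.92 and 0.63 on the KD2 arrays and at -0.10 in KD1, primed epiblast and feeder genes are the lowest of the lists drawn on replicate 1, and the cell cycle list lies on either side of 0.

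Genes were also placed on their chromosomes. Chromosome 14, which holds Kcnma1, Mmrn2, Slc15a1, Bmp4 and Rnf17, stood above the median of all genes by 0.34 on KD2 replicate 1 and 0.28 on replicate 2. Of its 451 genes 55 were higher (12.2%) and 1 was lower, where 2.88% of all genes were higher and 7.15% lower. Its KD1 median was 0.00. Chromosome 8 stood below by 0.32 on replicate 1 and 0.21 on replicate 2, with 134 of 706 genes lower, and its KD1 median was -0.30. The X chromosome stood below by 0.24 and 0.15, with 67 of 418 genes lower (16.0%). Chromosome 10 stood at -0.13 and -0.10, with 87 of 636 genes lower (13.7%). These chromosomes were alike on the 2 KD2 arrays, which differed so much gene by gene. Copy number was not measured, and its part in the changes of genes on chromosomes 8, 14, X and Y was not tested. Without the genes of chromosomes 8, 14, X and Y 964 genes were called, 275 higher and 689 lower.

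**Figure D5:**
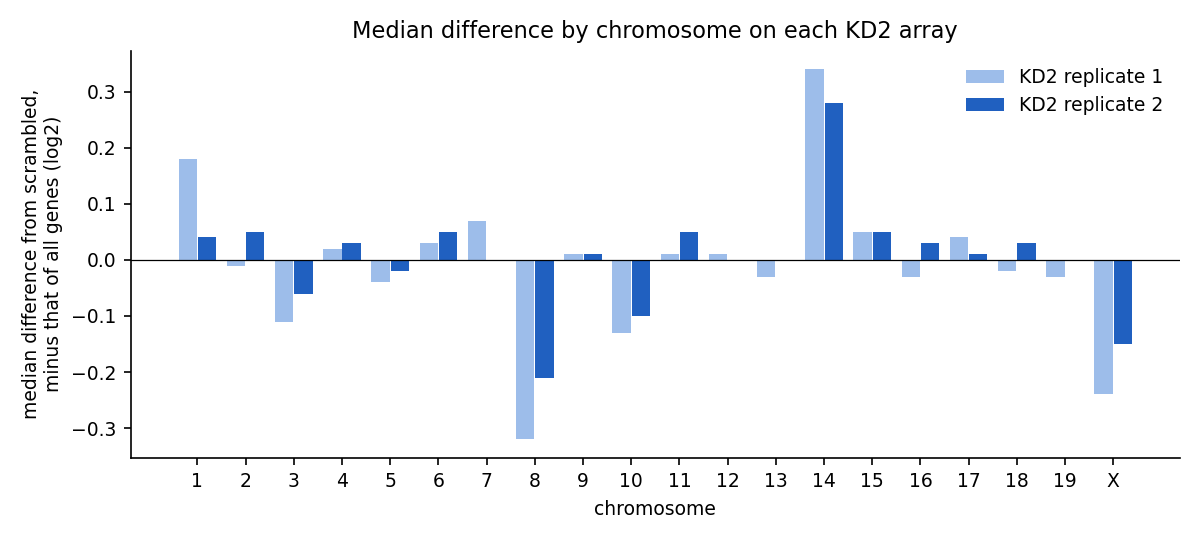
Median log2 difference from the scrambled mean by chromosome, relative to the median of all genes, on KD2 replicate 1 (light bars) and replicate 2 (dark bars), without the Y chromosome. Chromosome 14 is highest at 0.34 and 0.28, and chromosomes 8 and X are lowest at -0.32 and -0.21 and at -0.24 and -0.15.

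Between the lines 351 genes (2.70%) were called, 66 higher and 285 lower in KD2. The count rested on the KD1 pair. Without KD1 replicate 1 it called 19 genes and without KD1 replicate 2 it called 4. Of the 22 named genes that differed between the lines, 5 were left without KD1 replicate 1 (Epas1, Usp26, H2bc18, H2bc3 and H4c6) and 1, H2bc18, without KD1 replicate 2. Nearly all of the 22 were called with either KD2 array left out, but calls over all genes then rose as well.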

How the data were processed

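The authors deposited log2 probe set values, made with RMA per the submitters' processing notes, in a version not given in the sources used here. Of 35556 probe sets 21789 carried 1 gene symbol in the platform's gene table, and the highest-mean probe set of each gene was kept. A gene was tested when above percentile 40 of an array on at least 2 arrays, which left 12988. No further scaling was applied. One mean per group was estimated from the 12 arrays by limma 3.58.1 under R 4.3.3 (7 residual degrees of freedom, prior 4.58), two-sided, with Benjamini-Hochberg adjustment over all genes tested and calls at an adjusted p under 0.05. With 1 KD2, KD1 or scrambled array left out, the lone array is assumed to vary like the other groups. Differences of single arrays have no test.

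The members and gene lists were chosen with earlier results of these data known. The named genes are Smarcd1, its 2 paralogs, Kcnma1, Epas1 and Lefty1, the 12 largest increases and 12 largest decreases called without overlap, up to 4 called members of each list by size, and the 8 genes most different between the KD2 arrays in each direction. Predicted genes, small RNAs and olfactory receptors were left out. Not all genes given by this rule are described, and further called members of a list are named to complete its count. Replicate numbers were not taken to pair the samples. The differences between replicate 1 and 2 correlated across genes at -0.053 between scrambled and KD2, 0.243 between scrambled and KD1 and -0.183 between KD1 and KD2. Tables were made with Python 3.11.15 and pandas 2.3.3, and the fit was tested on simulated data.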

Additional observations from a re-analysis of the deposited data

Results flagged for a closer look

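In 22 named genes the change in KD2 differed from the change in KD1, as a test of KD2 against KD1 in the same limma fit showed (Benjamini-Hochberg adjusted p under 0.05). The values that follow are KD2 minus KD1 in log2. Kcnma1 (KD1) and Usp26 and Kcnn2 (KD2) rest on values below the level used to filter dim genes, and the second probe set of Kcnma1 showed no such difference from scrambled (0.01). Higher in KD2 were Kcnma1 by 5.37, H2bc18 by 1.56, H2bc3 by 1.39, Rnf17 by 1.29, H2bc14 by 1.29, H4c6 by 1.26, Epas1 by 1.22 and Inhbb by 1.04. Lower in KD2, as signed values, were Lrp2 (-2.44), Usp26 (-2.22), Slc27a2 (-1.71), Dll1 (-1.71), Atp10a (-1.57), Cldn6 (-1.56), Meg3 (-1.51), Lefty1 (-1.44), Hormad1 (-1.38), Lamb1 (-1.32), Kcnn2 (-1.18), Gja1 (-1.17), P4ha1 (-1.08) and Brd9 (-1.02). Epas1 rose in both lines, more in KD2, and Meg3 rose in both, more in KD1. Lefty1, Usp26, Slc27a2 and Gja1 fell in both, more in KD2.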

How the results depend on the processing

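Of 83 named genes that were called, 70 were called without each KD2 array and 39 without each array in turn, 76 under every scaling and 24 in the fit to the 6 ESC arrays. The 1302 calls (374 higher, 928 lower) became 6 with array weights (0 higher, 6 lower), 0 in the fit to the 4 arrays (0 and 0), 69 in the fit to the 6 ESC arrays (10 and 59), 474 at an adjusted p under 0.01 (111 and 363) and 598 at 2-fold or more (145 and 453). Quantile normalization gave 581 higher. With the replicate number as a block 675 were called (162 higher, 513 lower), 60 of the 83 named genes among them. Leaving out 1 array gave 333 to 4463 calls (69 to 2507 higher, 264 to 2957 lower), the lowest without scrambled replicate 2. The 351 calls between KD2 and KD1 became 0 with array weights, 156 with cyclic loess, 2 with the 6 ESC arrays, 29 with the replicate block and 4 to 4550 with 1 array left out. At 3-fold, 263 genes passed on KD2 replicate 1, 289 on replicate 2 and 441 between them. For 9 genes the direction turned with 1 KD2 array left out. Without replicate 1 and without replicate 2 respectively the difference was 0.85 and -2.53 for Rida, 0.65 and -2.15 for Mrpl23, 1.22 and -1.42 for Gstp1, 0.74 and -1.86 for Trappc1, 1.18 and -1.42 for Ap1m2, 0.89 and -1.67 for Dynlrb1, -1.24 and 1.37 for Tbrg3, -0.95 and 1.52 for Hsd17b11, and -1.42 and 0.90 for H1f2. These 9 genes were chosen for differing between the KD2 arrays. Leaving out an array changes the spread as well as the mean; for the other settings the cause was not tested.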
